A study of Mus musculus with 384 samples.

Results

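Transcripts of 9 cathepsins (Ctsa, Ctsb, Ctsc, Ctsd, Ctse, Ctsh, Ctsl, Ctss and Ctsz) and of the lysozyme Lyz2 were followed across single cells from the spinal cord of Optn knockout mice. The 10 genes were chosen by name from the 23420 genes of the expression table. Cords were digested with Accutase, cells labelled with antibodies to CX3CR1, CD11b and CD45 were sorted singly, and libraries were made with SmartSeq2, which copies whole transcripts and carries no molecular identifiers. All cells carried the genotype label Optn KO, the loss of optineurin, an autophagy receptor; strain and age are not in the labels, and all groups compared here are knockout cells, so the effect of losing Optn cannot be read from them. The labels list 384 cells, of which 326 had values, 154 in replicate 1 (plates 1 and 2) and 172 in replicate 2 (plates 3 and 4). The labels do not say whether the 2 replicates were separate mice. The p-values rest on how far the differences between classes varied from one of these 2 samples to the other, which may be technical. Optn was listed at 0 in all 326 cells, which allows a share of up to 0.920% of cells with a value above 0.

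Cathepsins are proteases of the lysosome and of related granules. Ctsd and Ctse are aspartic proteases, Ctsa is a serine carboxypeptidase, and Ctsb, Ctsc, Ctsh, Ctsl, Ctss and Ctsz are papain-like cysteine proteases. Lyz2 is the lysozyme of mouse myeloid cells, which cleaves bacterial peptidoglycan. In neutrophils, granule proteins are made in waves as the cell matures in the marrow, and specific granule genes such as Ltf and Camp are shut down before the cell is fully mature. Monocytes and macrophages use lysosomal cysteine cathepsins for protein turnover and antigen processing.

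Neutrophils were taken as the cells in which S100a8 plus S100a9, the subunits of calprotectin, reached at least 10000 TPM. The rule gave 286 neutrophils (131 and 155 in replicates 1 and 2) and 40 other cells (23 and 17). The highest cells below the threshold held 4019 and 3063 TPM and the lowest above it 12512 and 13435 TPM. Within each plate the neutrophils were ranked by a granule score, the mean log2(TPM + 1) of Camp, Ltf, Ngp, Lcn2, Cd177 and Chi3l3, and divided into 3 classes of equal size. The granule-high class held 97 cells with a median score of 14.4, the granule-middle class 95 cells with 8.74, and the granule-low class 94 cells with 2.53. The series title calls the cells microglia, but 0 of 326 cells had 3 or more of 13 microglia markers above 0, and P2ry12 and Tmem119 were above 0 in 2 and 3 cells.

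The classes differed in more than their granule genes. The median number of genes above 0 per cell was 2060, 1588 and 1367 from granule-high to granule-low neutrophils and 3027.5 in other cells. At least 5 of 16 proliferation genes were above 0 in 25 granule-high, 6 granule-middle and 8 granule-low neutrophils and in 27 other cells. The genes left out of the tests (the granule list, S100a8, S100a9 and Rn45s) took 40.6%, 26.0% and 13.9% of TPM in the 3 neutrophil classes and 5.11% in other cells. TPM is a share of each cell's total, per transcript length, so a large granule share lowers all other genes. An exact 0 may also be a transcript missed in that cell, so such a gene is called listed at 0. The part of these 3 measures in the differences given here was tested only by the alternatives named beside a result.

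Lyz2 was the most abundant of the 10 transcripts in every class. Its mean over the cells of granule-high neutrophils was 35257 TPM in replicate 1 and 38709 TPM in replicate 2. The means were 28471 and 26006 TPM in granule-middle cells, 15839 and 18350 TPM in granule-low cells, and 32760 and 43128 TPM in other cells. The replicates of the 3 neutrophil classes did not overlap and were ordered by granule class. In contrast, the other cells spanned the granule-high values. By mean TPM, Lyz2 ranked 5 among all genes in neutrophils and 2 in other cells. It was above 0 in 100% of granule-high and granule-middle cells, in 95.7% of granule-low cells and in 87.5% of other cells.

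Ctsd, the main aspartic protease of lysosomes, ran against Lyz2 across the neutrophil classes. Granule-high cells averaged 551 and 404 TPM in the 2 replicates, granule-middle cells 1744 and 1320 TPM, and granule-low cells 2820 and 2828 TPM. Again the 3 neutrophil classes did not overlap, with the highest values in the granule-low class. Other cells averaged 1267 and 833 TPM, between the granule-high and granule-middle classes, but their median cell held 405 TPM. Among them, 6 cells with neutrophil markers, described below, averaged 3882 TPM. The share of cells above 0 hardly separated the classes: it was 87.6%, 88.4% and 95.7% in neutrophils and 87.5% in other cells. Thus the difference lay in the level per cell: the median cell held 409, 1101 and 2375 TPM from granule-high to granule-low. Ctsd ranked 69 in neutrophils and 138 in other cells, the highest rank of the 9 cathepsins in neutrophils.

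**Figure D1:**
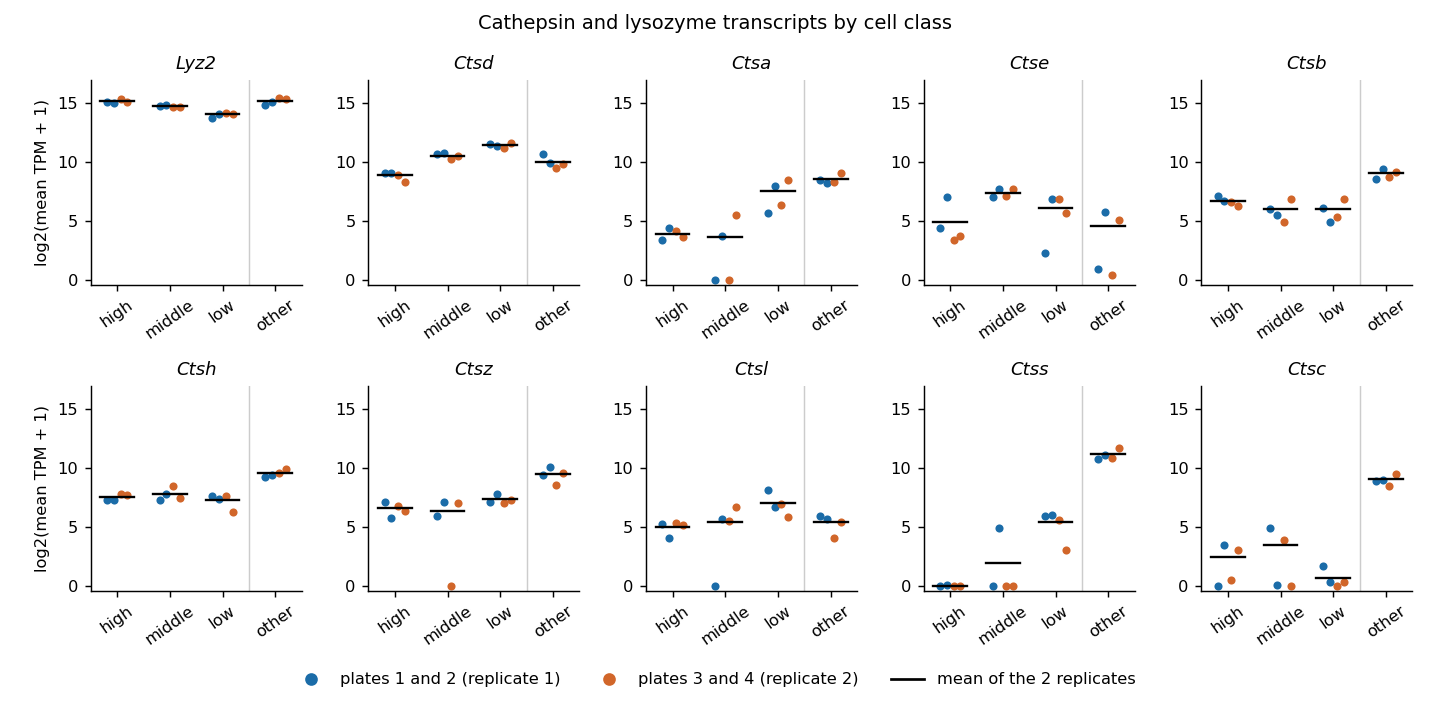
Mean level of each gene, as log2(mean TPM + 1), in granule-high, granule-middle and granule-low neutrophils and in other cells. Points are the 4 plates and bars the mean of the 2 replicates. Lyz2 descends and Ctsd ascends from granule-high to granule-low neutrophils, and Ctss and Ctsc lie between 0 and 64.7 TPM on the plates of the neutrophil classes and between 362 and 3330 TPM in other cells.

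Granule-high and granule-low neutrophils were compared with limma on log2(mean TPM + 1), with the replicate as a block. Of 6886 genes tested, 556 passed an adjusted p of 0.05 (8.07%), 189 higher (2.74%) and 367 lower (5.33%) in granule-high cells. When each cell was rescaled without the abundant untested genes, 353 genes were higher and 250 lower, and the median log2 fold change of all genes moved from -0.01 to 0.46. Of the 10 genes, 1 was higher, 3 were lower and 6 did not pass, with a median log2 fold change of -0.99. All 10 passed the filter on low values, Ctsc and Ctss only through the other cells.

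Lyz2 was higher in granule-high than in granule-low neutrophils, with a log2 fold change of 1.12 (SE 0.11, adjusted p = 0.00167, n = 2 replicates), and higher on 4 of 4 plates. Rescaled, the difference was 1.62. Ctsd was lower in granule-high cells, with a log2 fold change of -2.58 (SE 0.18, adjusted p = 0.000401), again on 4 of 4 plates. Rescaled, it was -2.09, so the directions of both genes held under this scaling. Both calls were lost without limma's trend and robust options, with adjusted p of 0.230 for Lyz2 and 0.0511 for Ctsd, and held in the other 17 and 16 alternatives. Between neighbouring classes, Ctsd was lower in granule-high than in granule-middle cells (log2 fold change -1.68, SE 0.18, adjusted p = 0.00654). The step from granule-middle to granule-low cells did not pass for Ctsd (-0.90, adjusted p = 0.0923) or for Lyz2 (0.67, adjusted p = 0.0537), nor did the step from granule-high to granule-middle cells for Lyz2 (0.44, adjusted p = 0.103).

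Cell by cell, the 2 genes kept these directions on every plate. Spearman's rho with the granule score over the 64 to 78 neutrophils of a plate was 0.65, 0.52, 0.61 and 0.49 for Lyz2 on plates 1 to 4. For Ctsd it was -0.59, -0.63, -0.55 and -0.67. The cells of a plate share library preparation and differ in detected genes, so these values are a description. Of 2254 genes above 0 in at least 25% of neutrophils, those most like Ctsd were H2-D1, a class I histocompatibility gene, with a mean rho over plates of 0.63, and the early response genes Dusp1 and Junb with 0.60 each. Those most like Lyz2 were its paralog Lyz1 with 0.96, and Anxa1, which encodes annexin A1, and Ly6f with 0.57 each. For the other 8 genes, none of the 3 most similar genes reached 0.3 on all 4 plates.

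**Figure D2:**
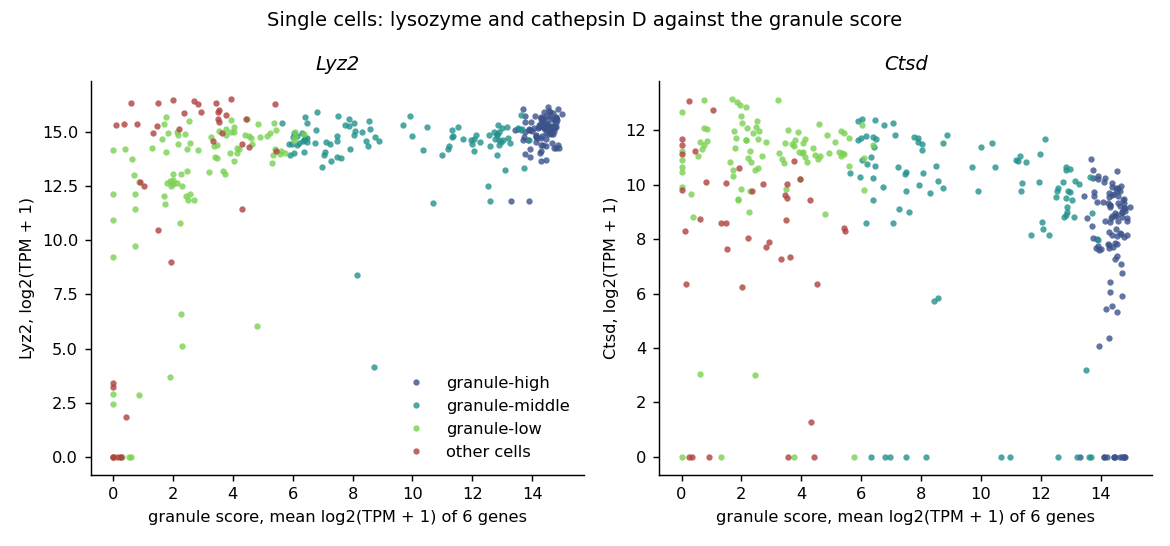
Lyz2 and Ctsd in single cells, as log2(TPM + 1), against the granule score. Each point is a cell, coloured by class. Lyz2 is high at the upper end of the score and spreads down to 0 in granule-low cells, while Ctsd is lower in granule-high cells (median 409 TPM) than in granule-low cells (median 2375 TPM).

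Granule-high cells with at least 5 of the 16 proliferation genes above 0, called cycling, were set beside those with fewer. The 25 cycling granule-high cells averaged 407 and 152 TPM of Ctsd in replicates 1 and 2, and the 72 others 604 and 488 TPM. Both sets lay below the granule-low class. For Lyz2 the cycling cells averaged 31458 and 30558 TPM and the others 36638 and 41427 TPM, both above the granule-low class. The cycling cells had a median of 2683 genes above 0, against 2004.5.

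Lyz2 (chromosome 10, 117277331 to 117282321, minus strand, GRCm38) lies beside Lyz1 (117287797 to 117292868, same strand), and reads can be shared between them. Over 444 coding bases they differ at 22 positions, an identity of 95%. Of all stretches of 25 bases in the Lyz2 transcript, 40.5% also occur in Lyz1, and of stretches of 50 bases 15.4%. The coding bases 61 to 120, where the differences are densest, are shown with the 9 differing bases in capitals, because these bases tell a read of one gene from a read of the other (GENCODE M21 transcripts).
Lyz2: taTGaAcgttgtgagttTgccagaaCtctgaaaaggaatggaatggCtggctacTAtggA
Lyz1: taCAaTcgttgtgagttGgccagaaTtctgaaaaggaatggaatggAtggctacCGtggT

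Lyz1 followed Lyz2 at a nearly fixed ratio. In the 302 cells with Lyz2 above 1000 TPM, the median Lyz1 level was 14.8% of Lyz2, with quartiles of 14.2% and 15.7%. The class medians lay between 14.6% and 15.0%. Lyz1 was above 0 in 309 of the 317 cells with Lyz2 and in 0 cells without it. How the authors' counting divided shared reads between the genes is not known, so the levels of Lyz1 and Lyz2 are uncertain. Lyz1 was higher in granule-high than granule-low neutrophils (log2 fold change 1.13, SE 0.12, adjusted p = 0.00274), a call lost without the trend and robust options. With Lyz1 added to it, Lyz2 kept its calls in both comparisons. The nearly fixed ratio made this outcome all but certain, so it does not test how reads were divided.

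Ctsa, the carboxypeptidase also known as protective protein for lysosomal sialidase and galactosidase, was also lower in granule-high than in granule-low neutrophils. Its means were 14.4 and 14.3 TPM in granule-high cells, 5.84 and 22.1 TPM in granule-middle cells, 150 and 222 TPM in granule-low cells, and 318 and 446 TPM in other cells. Granule-low cells lay above both other neutrophil classes in each replicate. Ctsa was above 0 in 33.0% of granule-low cells (95% exact binomial interval 23.6% to 43.4%) and in 15.5% of granule-high cells (8.92% to 24.2%). The share was lowest in granule-middle cells, at 6.32% (2.35% to 13.2%), so it did not follow the granule order. Spearman's rho of Ctsa with the granule score was -0.19, -0.22, 0.03 and -0.41 on plates 1 to 4. The log2 fold change between granule-high and granule-low cells was -3.58 (SE 0.55, adjusted p = 0.0112), and Ctsa was lower in granule-middle than granule-low cells (-3.87, SE 0.55, adjusted p = 0.0388). The first of these calls was lost without a filter on low values (adjusted p = 0.0692).

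The other aspartic protease, Ctse, peaked in the middle of the granule order. Granule-high cells averaged 75.3 and 11 TPM, granule-middle cells 168 and 172 TPM, granule-low cells 58.0 and 83.4 TPM, and other cells 30.9 and 17.3 TPM. The granule-middle values were the highest in both replicates. No step passed the test: the log2 fold change was -2.50 (adjusted p = 0.187) from granule-middle to granule-high and -1.22 (adjusted p = 0.392) between granule-high and granule-low. The latter was 0.37 in replicate 1 and -2.81 in replicate 2. Ctse was above 0 in 51.6% of granule-middle, 40.4% of granule-low and 32% of granule-high cells. Retnlg, a late granule gene, also had its highest mean in the granule-middle class, at 37942 TPM against 6939 TPM in granule-high and 19708 TPM in granule-low cells.

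Among the cysteine cathepsins, Ctsb and Ctsh were the ones seen most often in neutrophils. Ctsb, an abundant lysosomal endopeptidase, averaged 123 and 86.6 TPM in granule-high, 55.1 and 71.4 TPM in granule-middle, and 49.7 and 78.9 TPM in granule-low cells. Ctsh, an aminopeptidase, averaged 158 and 221, 190 and 270, and 185 and 135 TPM in the same classes. Neither difference between granule-high and granule-low cells passed, at log2 fold changes of 0.71 (adjusted p = 0.337) and 0.24 (adjusted p = 0.706). By replicate they were 1.29 and 0.13 for Ctsb and -0.22 and 0.71 for Ctsh, so Ctsh changed direction. The shares of cells, however, were far apart.

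Ctsb was above 0 in 71.1% of granule-high cells (61.0% to 79.9%), 34.7% of granule-middle cells and 23.4% of granule-low cells (15.3% to 33.3%). For Ctsh the shares were 68.0% (57.8% to 77.1%), 40% and 22.3% (14.4% to 32.1%). Both replicates showed this: Ctsb was above 0 in 73.3% and 69.2% of granule-high cells and in 20.9% and 25.5% of granule-low cells. The cells above 0 went the other way in level, with a median of 123 TPM of Ctsb in granule-high and 264 TPM in granule-low cells, and 258 and 734 TPM of Ctsh. When log values were averaged over cells in place of TPM, both genes passed as higher in granule-high cells, with differences of 3.14 for Ctsb (adjusted p = 0.00124) and 3.27 for Ctsh (adjusted p = 0.000852). The number of genes above 0 per cell moved in the same direction as these shares, and its part in them was not tested.

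**Figure D3:**
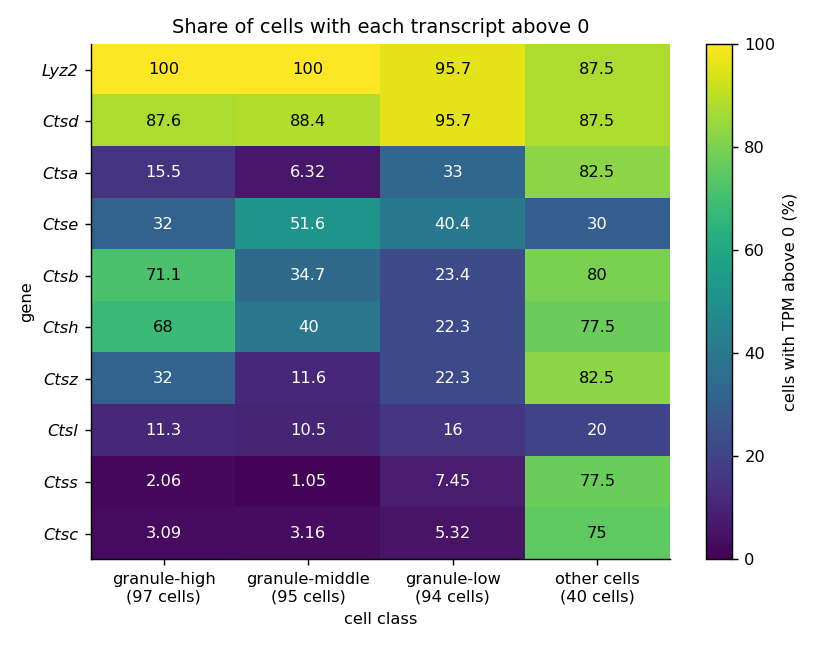
Percentage of cells with a TPM above 0 for each gene (rows) in each class (columns). Ctsb and Ctsh descend from 71.1% and 68.0% in granule-high to 23.4% and 22.3% in granule-low neutrophils, while Ctss and Ctsc are above 0 in over 70% of other cells and in under 8% of each neutrophil class.

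Ctsz, a carboxypeptidase, and Ctsl, an endopeptidase, did not pass the test between granule-high and granule-low neutrophils. Ctsz averaged 97.1 and 95.3 TPM in granule-high and 183 and 148 TPM in granule-low cells, and the log2 fold change was -0.77 (SE 0.32, adjusted p = 0.190). Ctsl averaged 27.3 and 37.3 TPM in granule-high and 199 and 90.1 TPM in granule-low cells, with a log2 fold change of -2.03 (SE 0.72, adjusted p = 0.137). With only these classes in the fit Ctsl passed, at an adjusted p of 0.0459. For both genes the granule-low values were the higher in each replicate. Ctsl was above 0 in 11.3% of granule-high, 10.5% of granule-middle and 16% of granule-low cells, so its means rest on 36 of 286 neutrophils.

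Ctss, an endopeptidase that processes the invariant chain of class II histocompatibility molecules, and Ctsc, which activates the serine proteases of neutrophil granules, were rarely above 0 in neutrophils. Ctss was above 0 in 10 of 286 neutrophils, 3.5% (1.69% to 6.34%), and Ctsc in 11 of 286, 3.85% (1.94% to 6.78%). In contrast, they were above 0 in 31 and 30 of the 40 other cells. The mean Ctss level was 0.05 and 0.02 TPM in granule-high, 14.9 and 0 TPM in granule-middle, and 62.9 and 27.4 TPM in granule-low cells. Its log2 fold change between granule-high and granule-low cells was -5.36 (SE 1.09, adjusted p = 0.0289), a value that depends on the pseudocount and on 7 granule-low cells, and the call was lost in 6 of 16 alternatives. Of 5 neutrophils with over 100 TPM of Ctss (166 to 1358 TPM), 4 were granule-low. All 5 had Cxcr2 and Csf3r above 0, but so had 87.5% and 75% of other cells, so these genes do not separate the 2 kinds. Ccr2, above 0 in 70% of other cells, was above 0 in 0 of the 5. The rest of the marker lists is not given for these cells. Ctsc averaged 5.14 and 3.97 TPM in granule-high and 1.3 and 0.13 TPM in granule-low cells (log2 fold change 1.78, adjusted p = 0.222).

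The comparison of all neutrophils with other cells gave 2016 genes past the threshold (29.3%), 418 higher (6.07%) and 1598 lower (23.2%) in neutrophils. Its log2 fold change is the mean of the log2 values of the 3 granule classes minus that of other cells, so a gene near 0 in 1 class lies further from 0 than the ratio of the pooled means. Rescaled without the abundant untested genes, 548 were higher and 1097 lower, and the median log2 fold change of all genes moved from -0.91 to -0.57. Of the 10 genes, 0 were higher, 7 were lower and 3 did not pass, with a median log2 fold change of -2.39. Ctsc and Ctss could pass the filter only through the other cells, so their direction was set by it and their calls support nothing. Of the remaining 8 genes, 5 were lower. Fewer genes were detected per neutrophil than per other cell, as given above.

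Ctss showed the widest gap. Other cells averaged 2059 and 2661 TPM and pooled neutrophils 25.6 and 9.01 TPM. The log2 fold change was -7.17 with neutrophils pooled and -8.71 (SE 0.89) as the mean over granule classes. Ctss ranked 49 among all genes in other cells and 3744 in neutrophils. Ctsc averaged 509 and 569 TPM in other cells and 7.06 and 3.76 TPM in neutrophils (-6.44 pooled, -6.86 over classes, SE 0.65). The mean of other cells was the higher on 4 of 4 plates for both genes. Single cells overlapped, since neutrophils reached 1358 TPM of Ctss and 635 TPM of Ctsc while 9 and 10 of the other cells were listed at 0.

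The remaining called cysteine cathepsins were lower in neutrophils by smaller factors. Ctsb averaged 564 and 507 TPM in other cells against 76.6 and 79.0 TPM in neutrophils (log2 fold change -2.84, SE 0.33, adjusted p = 0.00160). Ctsz averaged 924 and 587 TPM against 126 and 102 TPM (-2.75, SE 0.26, adjusted p = 0.000746). Ctsh averaged 669 and 895 TPM against 178 and 209 TPM (-2.03, SE 0.26, adjusted p = 0.00241). Ctsa, the carboxypeptidase, averaged 318 and 446 TPM against 56.2 and 85.3 TPM in pooled neutrophils. Its log2 fold change was -2.43 pooled and -3.52 over the granule classes (SE 0.45, adjusted p = 0.00222). These 4 genes were lower on 4 of 4 plates and kept their calls in all 15 alternatives.

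Single cells of the 2 kinds also differed in how many cysteine cathepsins they held at once. Of the 6, a median of 5 was above 0 in other cells, against 2 in granule-high and 1 in granule-middle and granule-low neutrophils. At least 4 were above 0 in 30 of 40 other cells and in 7 of 286 neutrophils. Their summed level was 4781 and 5250 TPM in other cells and 496 and 471 TPM in neutrophils. The 6 include Ctss and Ctsc, which passed the filter only through other cells. Other cells also had more genes above 0, a median of 3027.5 per cell against 1604.5 in neutrophils. The part of this in the counts was not tested.

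For Lyz2, Ctsd, Ctse and Ctsl the call failed or changed with the settings. Lyz2 was lower in neutrophils by a small amount (log2 fold change -0.54, SE 0.09, adjusted p = 0.00546, 4 of 4 plates), a call that depended on the scale and on the options of the test. Without the trend and robust options its adjusted p was 0.316. Rescaled, the difference was -0.13 (adjusted p = 0.283), and with log values averaged over cells it turned to 1.78. Ctsd did not pass the test (0.30, SE 0.15, adjusted p = 0.160), but was called higher in neutrophils in 4 alternatives, among them the rescaled values (0.66, adjusted p = 0.0203). Ctse averaged 100.1 and 88.9 TPM in neutrophils against 30.9 and 17.3 TPM in other cells, a log2 fold change of 1.56 (SE 0.64, adjusted p = 0.105), and was also called higher in 4 alternatives. Ctsl had 0.44 (SE 0.59, adjusted p = 0.588), with -0.11 in replicate 1 and 1.003 in replicate 2.

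**Figure D4:**
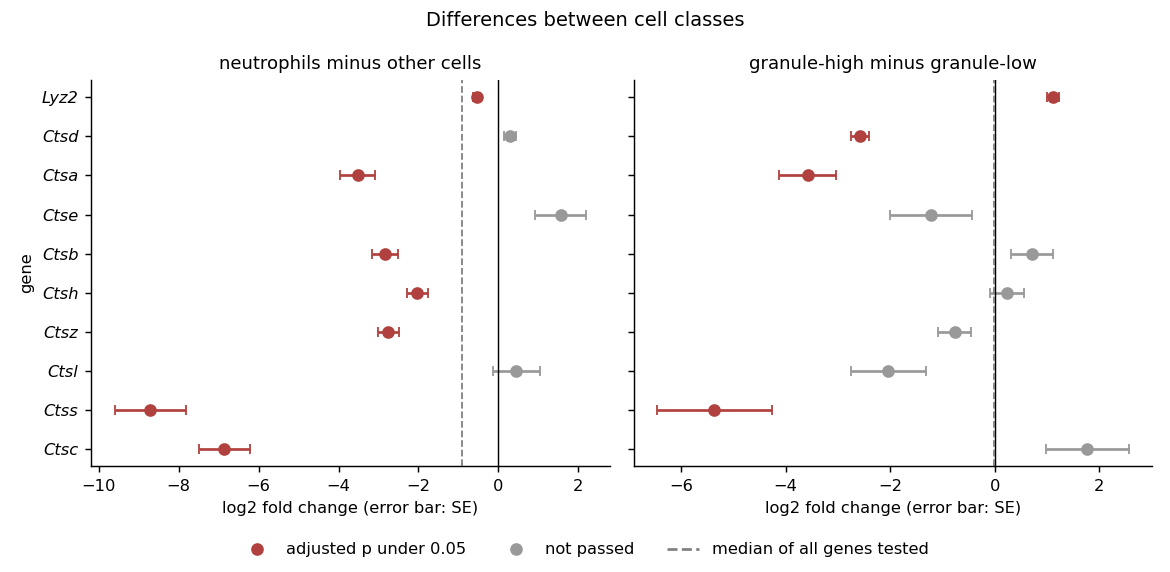
Log2 fold change with its standard error for each gene, neutrophils minus other cells and granule-high minus granule-low. Red points passed an adjusted p of 0.05, grey points did not, and the dashed line is the median of all genes tested. Against other cells 7 genes lie left of 0 in red; between granule classes Lyz2 is red on the right and Ctsd, Ctsa and Ctss on the left.

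The 40 other cells were of several kinds, and the 10 genes followed them. A rule made after the values were seen assigned cells by the marker lists: at least 3 monocyte markers (27 cells), at least 3 monocyte and 3 dendritic markers (1 cell), 3 B cell markers (2 cells), 3 T or NK cell markers (2 cells), or at least 5 of the 8 neutrophil markers other than S100a8 and S100a9 (6 cells). The remaining 2 cells met none of these. The counts are small, and no test was made between them.

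The 27 cells with monocyte markers held most of the cysteine cathepsin signal. Ctss, Ctsb, Ctsz and Lyz2 were above 0 in all 27. Ctss ranged from 380 to 6161 TPM with a median of 2715 TPM, and Lyz2 from 2762 to 93519 TPM with a median of 48815 TPM. Ctsc and Ctsa were above 0 in 26 cells each, with medians of 609 and 399 TPM, and Ctsh in 25 cells, with a median of 1015 TPM. Ctsd, by contrast, had a median of 314 TPM, below that of each neutrophil class. A further comparison, chosen after seeing the data, used only the 28 other cells with at least 3 monocyte markers. These were the 27 cells and the cell with monocyte and dendritic markers. Against them Ctsd was higher in neutrophils (log2 fold change 1.54, adjusted p = 0.00248) and Lyz2 lower (-0.997, adjusted p = 0.000325).

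The 6 cells with neutrophil markers but little S100a8 and S100a9 held Ctsd without several of the cysteine cathepsins. Their Ctsd levels were 1070, 1581, 2243, 2817, 6822 and 8760 TPM. Ctss, Ctsc and Ctsl were listed at 0 in all 6, and Lyz2 ran from 0 to 5819 TPM with a median of 260 TPM. The 2 cells with B cell markers lacked Lyz2, which was listed at 0, but held Ctss at 1295 and 1995 TPM and Ctsh at 449 and 1351 TPM. In the 2 cells with T or NK cell markers, Ctsd was the only one of the 10 above 3 TPM, at 900 and 3286 TPM. One of them held 3520 TPM of Ctsw, a cathepsin of cytotoxic lymphocytes. The cell with monocyte and dendritic markers had the highest Ctss and Ctsc of the 326 cells, at 6948 and 3286 TPM, with 2766 TPM of Ctsh.

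**Figure D5:**
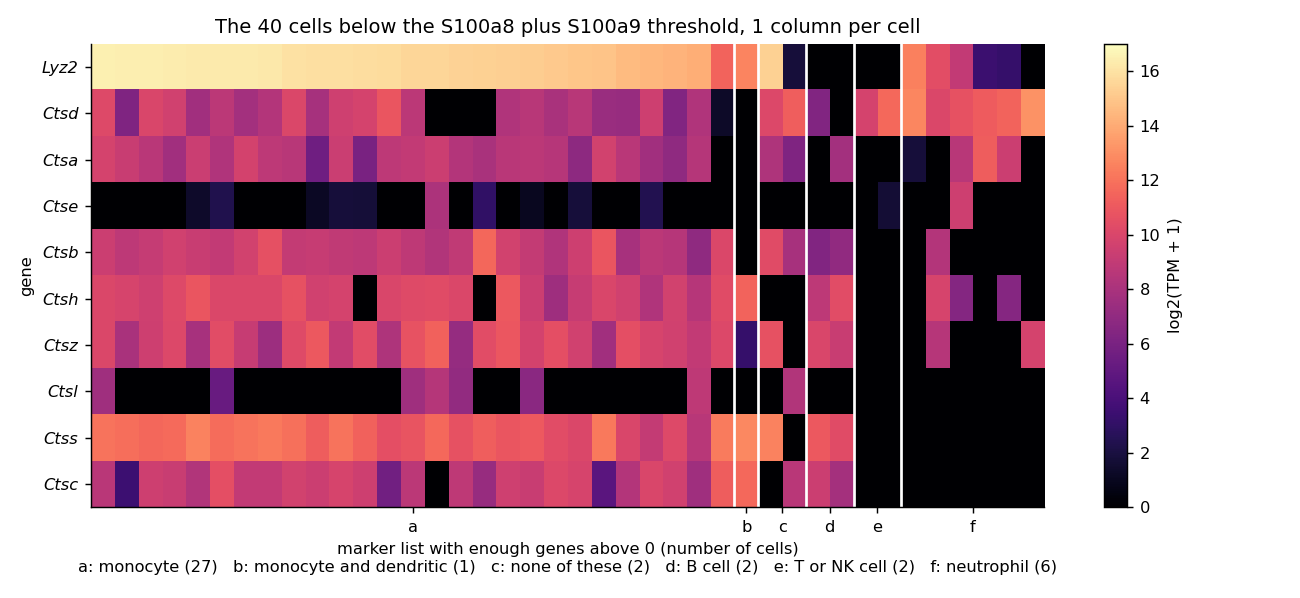
Level of each gene as log2(TPM + 1) in the 40 other cells, 1 column per cell, arranged by the marker list that the cell met. The 27 cells with monocyte markers show Ctss, Ctsb, Ctsz and Lyz2 throughout, and the 6 cells with neutrophil markers show Ctsd without Ctss, Ctsc or Ctsl.

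Neutrophils with several early granule genes were rare. Of 286 neutrophils, 6 had at least 3 of the 6 early granule genes above 0. Mpo and Ctsg were listed at 0 in all of these except 1 granule-low cell. The rest had granule scores of 13.1 to 14.8, so the rule does not mark them as early precursors. Ctsc was listed at 0 in all 6, but it was above 0 in only 3.85% of all neutrophils. Ctsg, a serine protease of early neutrophil granules that Ctsc activates, was above 0 in 1 neutrophil. That granule-low cell held 11798 TPM of Ctsg, 31987 TPM of Mpo and 50794 TPM of Elane with 65.2 TPM of Lyz2 and 492 TPM of Ctsd. Without these 6 cells, no call among the 10 genes changed.

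Inhibitors of cathepsins were described from a list of 10 genes, of which 6 were tested. Between neutrophils and other cells, 1 was higher, 1 lower and 4 did not pass (median log2 fold change 1.97), beside 29.3% of all genes called and a median of -0.91. Stfa2, Stfa2l1 and Serpinb6a were each above 0 in 2.5% of other cells, so they could pass the filter only through neutrophils. Their direction was set by the filter, and the median of 1.97, which rests on them, supports nothing. Between granule-high and granule-low neutrophils 1 was higher, 1 lower and 4 did not pass (median -1.23), beside 8.07% of all genes and a median of -0.01. Stfa2 and Stfa2l1, above 0 in 2.06% and 3.09% of granule-high cells, passed the filter only through granule-middle and granule-low cells. Serpinb6a passed only through granule-high cells, at 21.6% against 7.37% and 6.38% in the other neutrophil classes. The filter favoured these directions, so the median of -1.23 supports nothing. Serpinb1a, an inhibitor of neutrophil serine proteases including Ctsg, averaged 874 and 927 TPM in granule-high cells, 86.2 and 27.5 TPM in granule-low cells and 51.4 and 23.3 TPM in other cells. It was higher in granule-high than granule-low cells (log2 fold change 4.18, SE 0.61, adjusted p = 0.00908) and higher in neutrophils than in other cells (2.60, SE 0.49, adjusted p = 0.00985), calls lost in 3 and 2 alternatives. Cst3, the secreted cystatin C that blocks cysteine cathepsins, ran the other way, with 715 and 498 TPM in granule-high, 1622 and 1536 TPM in granule-low and 3438 and 2910 TPM in other cells. It was lower in granule-high cells (-1.40, SE 0.16, adjusted p = 0.00339) a call lost in 2 alternatives, and lower in neutrophils (-1.75, SE 0.13, adjusted p = 0.000386). Stfa2l1, a stefin, averaged 0 and 49.6 TPM in granule-high and 732 and 682 TPM in granule-low cells, and did not pass (-6.64, adjusted p = 0.0543).

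Other lysosomal genes were described from a list of 36, of which 34 were tested. In neutrophils against other cells, 1 was higher, 14 were lower and 19 did not pass, with a median log2 fold change of -1.41. Of all genes 6.07% were higher and 23.2% lower, with a median of -0.91. Some genes of the list were above 0 in under 10% of each neutrophil class and could pass the filter only through other cells. The direction of those genes was set by the filter. Psap, the precursor of the saposins (-2.51, SE 0.18, adjusted p = 0.000273), Npc2, a cholesterol transporter (-3.61, adjusted p = 0.000575), and Cd68 (-2.72, adjusted p = 0.00178) were lower. The tetraspanin Cd63 was higher (2.48, SE 0.65, adjusted p = 0.0288), at 567 and 385 TPM in neutrophils against 213 and 18.5 TPM in other cells. This last call was lost in 4 alternatives, among them the fit without the replicate block.

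Between granule-high and granule-low neutrophils, 0 of the 34 lysosomal genes were higher, 5 were lower and 29 did not pass, with a median of -0.73. Of all genes 2.74% were higher and 5.33% lower, with a median of -0.01. Cd68 averaged 25.9 and 13.9 TPM in granule-high and 325 and 229 TPM in granule-low cells (-3.77, SE 0.40, adjusted p = 0.00233). Tfeb, a transcription factor of lysosomal genes, averaged 15.0 and 17 TPM in granule-high and 127 and 111 TPM in granule-low cells (-2.82, SE 0.54, adjusted p = 0.0237), a call lost in 6 alternatives. Psap, Ppt1 and Laptm5 were also lower, with log2 fold changes of -1.14, -1.83 and -0.90, but did not pass when rescaled (-0.63, -1.28 and -0.37).

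Promoters of the 10 genes were looked up in RefSeq (GRCm38.p6), which held 8 promoters for 7 of the 10 genes. Ctsb, Ctse and Ctsh were not among them. The 250 bases before the start site were searched on both strands for CACGTG, the E-box bound by the family of Tfeb, for its longer form TCACGTGA, for GAGGAA, a purine-rich core bound by the myeloid factor PU.1, for its longer form GAGGAAGT, and for TTGCNNAA, bound by CEBP factors. The longer forms contain the shorter ones. The promoters of Ctsd and Ctsa, both lower in granule-high than in granule-low cells, and of Ctss and Ctsc, both near 0 in neutrophils, are shown with CACGTG or GAGGAA, on either strand, in capitals. Each promoter shown holds a match, and those of Lyz2, Ctsz and Ctsl are not shown.
Ctsd, chr7:142387828-142388077, minus strand: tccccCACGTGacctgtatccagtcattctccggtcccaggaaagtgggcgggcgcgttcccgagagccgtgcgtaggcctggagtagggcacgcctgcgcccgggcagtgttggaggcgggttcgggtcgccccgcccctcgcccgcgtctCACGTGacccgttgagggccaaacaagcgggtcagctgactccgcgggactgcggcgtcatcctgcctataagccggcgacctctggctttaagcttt
Ctsa, chr2:164833523-164833772, plus strand: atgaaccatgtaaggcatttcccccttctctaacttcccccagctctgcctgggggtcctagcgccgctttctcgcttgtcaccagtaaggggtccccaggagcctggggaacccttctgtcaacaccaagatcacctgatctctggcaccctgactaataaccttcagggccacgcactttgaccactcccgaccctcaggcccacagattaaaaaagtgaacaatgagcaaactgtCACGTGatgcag
Ctss, chr3:95526536-95526785, plus strand: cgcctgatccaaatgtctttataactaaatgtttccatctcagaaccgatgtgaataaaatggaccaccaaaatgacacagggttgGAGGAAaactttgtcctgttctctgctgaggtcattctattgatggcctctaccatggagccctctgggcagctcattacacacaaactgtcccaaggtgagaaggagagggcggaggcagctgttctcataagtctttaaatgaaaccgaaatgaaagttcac
Ctsc, chr7:88277835-88278084, plus strand: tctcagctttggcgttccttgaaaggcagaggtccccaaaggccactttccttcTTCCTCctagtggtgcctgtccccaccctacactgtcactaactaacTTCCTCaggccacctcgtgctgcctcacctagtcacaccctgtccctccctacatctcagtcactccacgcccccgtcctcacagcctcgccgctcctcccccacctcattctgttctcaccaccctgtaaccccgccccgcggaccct

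CACGTG was found in 3 of the 8 promoters (Ctsd, Ctsa and Ctsl), against 6.02% of all 32851 promoters of the table. TCACGTGA was in 2 (Ctsd and Ctsa), against 0.785%. GAGGAA was in 2 (Ctss and Ctsc), against 23.3%, GAGGAAGT in 1 (Ctsc), against 2.44%, and TTGCNNAA in 1 (Ctsl), against 9.56%. The table holds a second Ctsa promoter (chr2:164832622-164832871), next to the annotated start of the gene, in which none of the 5 motifs was found. The Lyz2 and Ctsz promoters held none of the 5 motifs in this window. These are matches of letters, and no binding was measured.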

How the data were processed

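The authors deposited TPM values (a share of each cell's total scaled by transcript length) for each cell, made with RSEM on mm10 per the submitters' processing notes; no version, aligner or annotation is given in the sources used here. Each cell sums to 1000000, so sequencing depth is unknown and genes above 0 per cell stood in for it. All 326 cells were kept and no doublet caller was run.

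TPM was averaged over the cells of each class in each replicate, giving 8 averages. Their log2(mean TPM + 1) was fitted in R 4.3.3 by limma 3.58.1 using its trend and robust options. The replicate was a block, since all classes come from the same 2 labelled samples (3 residual degrees of freedom). P-values were adjusted by Benjamini-Hochberg over 6886 genes, with a threshold of 0.05. Genes were tested if their mean reached 5 TPM and if 10% or more of the cells of 1 class held them, without the granule list, S100a8, S100a9 and Rn45s. Fold changes on this scale understate the change of low genes. The script was tested on simulated data. Intervals on shares are exact binomial ones and, like the limit for a count of 0 (3 cells), cover counting error only.

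The members and lists were chosen with earlier results of these data known. All 10 genes are named; from the other lists, up to 5 called genes per direction and comparison could be named, and any tested inhibitor or other cathepsin. Alternatives covered the pseudocount, filters, averaging, scaling, block, thresholds, granule classes, cycling cells and replicates left out; 3 were added after seeing the data.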

Additional observations from a re-analysis of the deposited data

Results flagged for a closer look

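The mean of each of the 10 genes in each class was compared across the 4 plates. In 3 of 40 such sets 1 plate stood far from the other plates; chance gives about 1 in 20. Ctse in granule-high neutrophils averaged 132.9 TPM on plate 2, against 20.2 TPM on the next plate and 9.67 TPM on the lowest. There 10 of 22 cells were above 0, with a highest value of 1057 TPM. Ctss in granule-middle neutrophils averaged 30.5 TPM on plate 2 and was listed at 0 on the other plates, all of it from 1 of 21 cells at 640 TPM. Ctsc in granule-low neutrophils averaged 2.25 TPM on plate 1, against 0.31 TPM on the next plate, from 1 of 22 cells at 49.5 TPM.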

How the results depend on the processing

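The count of called genes among the 10, Ctss and Ctsc included, was 7 for neutrophils against other cells and stayed within 1.5 times of that in the alternatives run. For granule-high against granule-low neutrophils it was 4, and became 2 without a filter on low values and 1 without the trend and robust options. Over all genes, the first comparison gave 2016 calls and 4158 with log values averaged over cells. The second gave 556 calls, 1259 with averaged log values, 893 with averages per plate, 912 with only the classes compared, 166 without a filter, 210 with 2 granule classes, 237 with fixed borders of the score, 233 with the score adjusted for genes detected, and 240 without the trend and robust options. Averaging log values, which weights cells listed at 0 more, turned the direction for Lyz2 (1.78), Lyz1 (1.65) and Ctsl (-0.43) against other cells, and for Ctsz (0.56), Cstb (0.25) and Psap (0.089) between granule classes. With 2 granule classes Ctsc turned to -1.03. The cause of these changes was not tested. Without the replicate block the counts were 2039 and 643, and no call among the 10 genes changed. A threshold of 5000 TPM changed no cell. With 1 replicate left out there was no test. Of 40 such values for the 10 genes, 3 changed sign: Ctsl against other cells (-0.11 and 1.003), and between granule classes Ctse (0.37 and -2.81) and Ctsh (-0.22 and 0.71). Between granule classes Ctsd was -2.80 and -2.35, Lyz2 1.08 and 1.15, and Ctsb 0.13 and 1.29. Of the tested values for single genes under the other alternatives, 682 kept direction and call, 56 lost a call, 35 gained one and 7 turned direction.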
